A study of Mus musculus with 6 samples.

Results

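The 9 genes described here carry the core of cellular iron handling: Tfrc for uptake, Slc11a1 and Slc11a2 for transport out of lysosomes and endosomes, Fth1 and Ftl1 for storage, Ncoa4 for release from storage, Slc40a1 for export, and Aco1 and Ireb2 for control. They were chosen by name for their function, with earlier results of these data known, and are 9 of the 55536 genes in the deposited table. The cells were RAW264.7, immortalised macrophages of mouse origin that can form osteoclasts, grown with the osteoclast-inducing cytokine RANKL at 50 ng/mL. In 3 libraries RANKL was the only agent, and in 3 others etelcalcetide, a peptide agonist of the calcium-sensing receptor, was added at 4 µM. All 6 libraries therefore carry RANKL, and no library without RANKL was analysed here. The study's design gives 5 days of treatment, whereas by the labels of the samples, in either group, replicate 1 had 5 days, replicate 2 had 6 and replicate 3 had 7. Separate cultures are not stated for the replicates, and the p-values here therefore reflect sample-to-sample spread that may be technical.

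Cells take up transferrin-bound iron through the transferrin receptor, move it out of the endosome, store the surplus inside ferritin shells made of heavy and light chains, and export it through ferroportin. Iron regulatory proteins bind a hairpin called the iron-responsive element (IRE) when iron is scarce. Binding in a 5′ untranslated region blocks translation, and binding in a 3′ untranslated region protects the messenger from decay. Macrophages recycle iron from engulfed red cells, and osteoclasts are known for a high demand for iron through their many mitochondria.

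Reads recovered from the deposited values numbered 13742913 to 16264432 per library. Summed over a fixed list of osteoclast markers, FPKM (fragments scaled to exon length and to library depth) was 393 to 539 with RANKL alone and 206 to 219 with etelcalcetide, and 6 of the 9 markers tested fell (3 of the 6 that passed the filter on low values in both groups, against 27.0% of all genes tested). Mmp9 (means 158 and 163 FPKM), Dcstamp and Itgb3 were not called, and Mmp9 made up most of the etelcalcetide osteoclast sum. The macrophage markers summed to 2515 to 2677 and 2812 to 2973 FPKM, all 8 had reads, and 3 of the 7 tested rose (Adgre1, Itgam and Fcgr1), against 26.0% of all genes. Most of that sum was Lyz2 (means 1748 and 1830 FPKM), and Lyz2, Cd68 and Csf1r were not called. All these sums are of FPKM before scaling between libraries. Erythroid markers, another source of iron genes, summed to at most 0.583 FPKM with 6 of 9 at 0 reads in every library. Hepatocyte markers summed to at most 0.175 FPKM with 4 of 6 at 0, and lymphocyte markers to at most 0.211 FPKM with 4 of 5 at 0. The part of the shifts in single macrophage and osteoclast markers in the iron gene results was not tested. In these bulk libraries, fewer cells of a type and less RNA per cell cannot be told apart.

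All 9 iron genes passed the filter on low values, and 6 of them (66.7%) differed at an adjusted p under 0.05: Slc11a1, Ftl1 and Slc40a1 were higher with etelcalcetide, and Tfrc, Ncoa4 and Fth1 lower. Over all 11120 genes tested, 53.0% were called, 26.0% higher and 27.0% lower, so a majority of called genes is also what the whole table shows. With replicates of the same number, and so of the same labelled day, taken as a block, 4 of the 9 genes (2 higher and 2 lower) and 5709 of all 11120 genes were called, and Fth1 and Slc40a1 lost their calls. Scaling by library totals alone changed the split over all genes from 2896 higher and 2998 lower to 3558 higher and 2272 lower. The median log2 fold change was -0.14 over the 9 genes and -0.01 over all genes tested. In deposited FPKM, 6 of the 9 had groups that did not overlap, 4 higher and 2 lower with etelcalcetide, against 61.2% of all genes tested (36.7% higher and 24.5% lower). After scaling between libraries it was again 6 of 9, with Fth1 in place of Aco1, against 61.9%.

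The iron-responsive elements are shown because they separate the genes by the end of the messenger that the regulatory proteins bind. Each was found in GENCODE M21 transcripts (GRCm38) as an unpaired C, 5 bases, the loop CAGTGN with a last base other than G, and 5 bases that pair with the first 5, G-T pairs allowed, on the sense strand of annotated untranslated regions. Capitals mark the 6-base loop, and each is printed 5′ to 3′ on the gene's strand. Fth1 (chr19:9982733-9982759, plus strand), Ftl1 (chr7:45459780-45459806, minus strand) and Slc40a1 (chr1:45925466-45925492, minus strand) hold it in the 5′ untranslated region. In Tfrc the pattern matched 4 times in the 3′ untranslated region on the plus strand, at chr16:32631220-32631246, chr16:32631599-32631625, chr16:32631664-32631690 and chr16:32631711-32631737. An element that departs from the pattern would be missed, so these counts are of matches and not of all elements. Slc11a2 holds one with 1 unpaired position in the 3′ untranslated region of at least one of its transcripts (chr15:100395154-100395180, minus strand).
Fth1: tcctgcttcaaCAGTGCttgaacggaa
Ftl1: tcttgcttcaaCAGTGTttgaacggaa
Slc40a1: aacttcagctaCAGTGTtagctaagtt
Tfrc element 1: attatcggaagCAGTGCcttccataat
Tfrc element 2: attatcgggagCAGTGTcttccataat
Tfrc element 3: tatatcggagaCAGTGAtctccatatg
Tfrc element 4: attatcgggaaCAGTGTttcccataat
Slc11a2: gccatcagagcCAGTGTgtttctatgg
Of 21866 coding genes, 0.105% held a fully paired match in a 5′ untranslated region and 0.457% in a 3′ one, and with up to 1 unpaired position 0.654% and 3.04%. A match is a description of the sequence, not a measured binding site. With etelcalcetide, the 5′ group held both directions (Fth1 lower, Ftl1 and Slc40a1 higher). Of these only Ftl1 kept its call in all alternative settings. Fth1, the only lower gene of this group, lost its call in 9 of 16 and Slc40a1 in 6 of 14, so a split of direction in this group is not established.

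**Figure D1:**
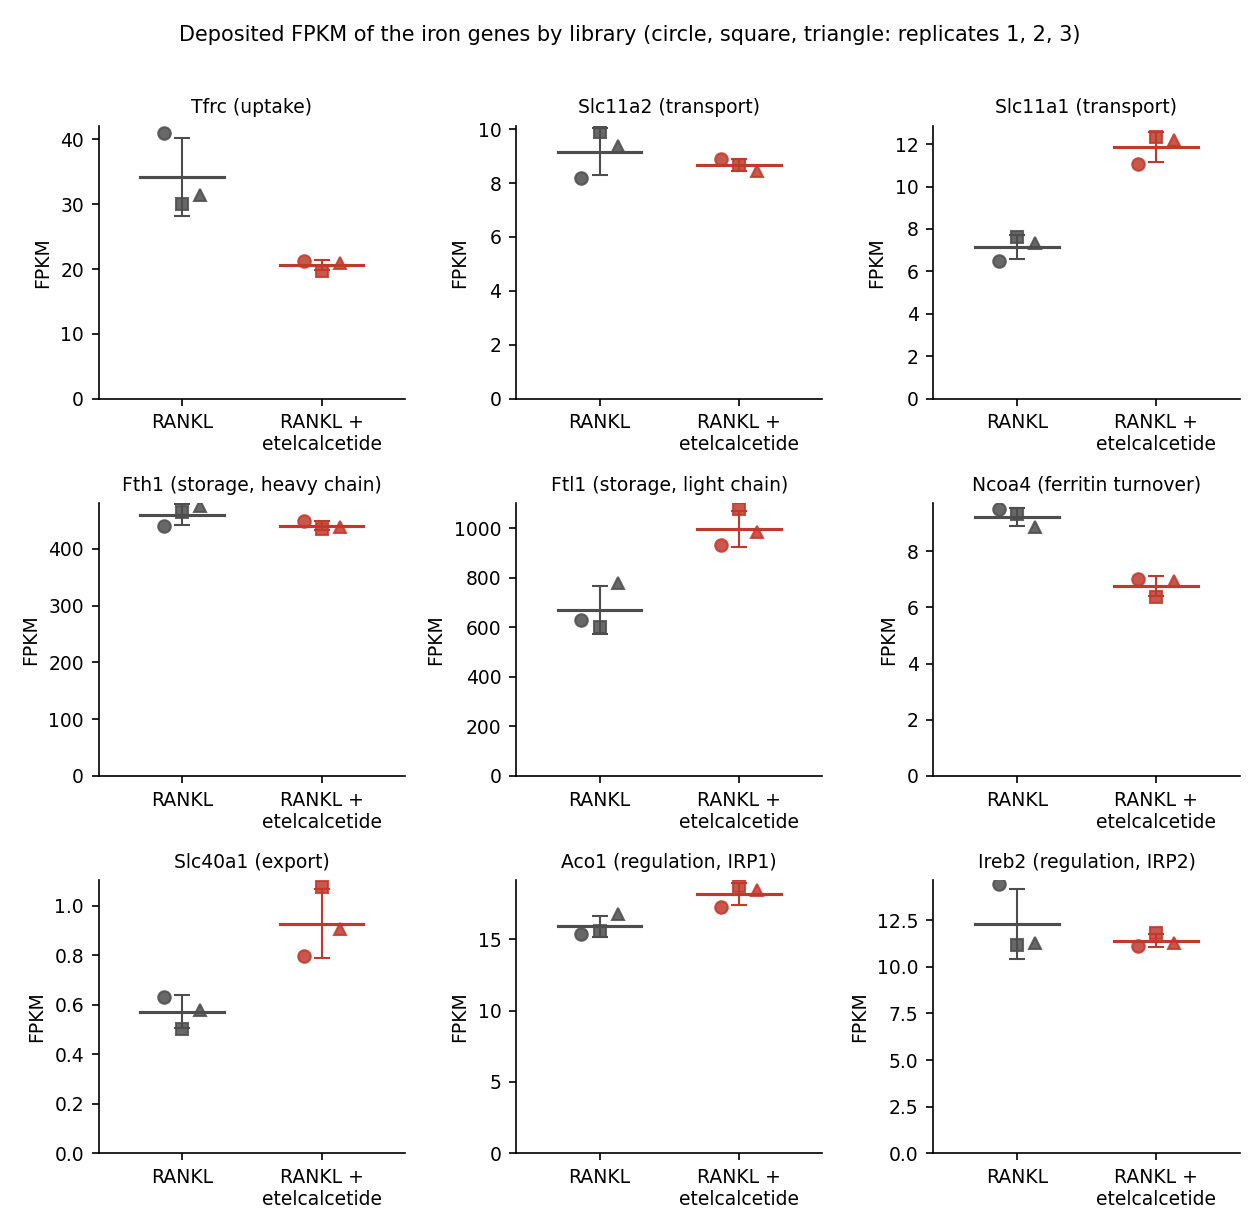
FPKM of the 9 iron genes in each library, RANKL alone and RANKL with etelcalcetide, with each group's mean and SD (n = 3). Tfrc and Ncoa4 sit lower and Slc11a1, Ftl1 and Slc40a1 higher in all 3 etelcalcetide libraries, while Slc11a2, Fth1 and Ireb2 overlap.

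Tfrc encodes transferrin receptor 1, the main gate for transferrin-bound iron (chr16:32608920-32632794, plus strand, 6185 exonic bases). With RANKL alone it was at 41.0, 29.99 and 31.5 FPKM, and with etelcalcetide at 21.3, 19.7 and 20.9. Every etelcalcetide library was below every RANKL library, and RANKL replicate 1 stood highest. Tfrc fell from 34.2 ± 5.99 to 20.6 ± 0.797 FPKM (SD, n = 3 each). Its log2 fold change was -0.79 (SE 0.106, 95% interval -1.03 to -0.55), 1.73-fold lower (limma, Benjamini-Hochberg adjusted p = 0.000321). Without RANKL replicate 1 it was -0.65, and the call held in all 15 alternative settings.

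Slc11a1 encodes NRAMP1, the transporter of the phagosome membrane of macrophages; RAW264.7 came from a BALB/c-type mouse, a strain known for a non-functional allele, and these values count its transcript only. The gene lies at chr1:74375195-74386062 on the plus strand, with 3705 exonic bases. It was at 6.51, 7.60 and 7.32 FPKM with RANKL alone and 11.1, 12.3 and 12.2 with etelcalcetide. The groups did not overlap, and the gap was wider than the spread inside either. Its near-identical copy Gm4829 held 3 reads over the 6 libraries. Slc11a1 rose from 7.14 ± 0.566 to 11.9 ± 0.696 FPKM (SD, n = 3 each), a log2 fold change of 0.65 (SE 0.0834, 95% interval 0.46 to 0.84; limma, Benjamini-Hochberg adjusted p = 0.000265).

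Slc11a2 encodes DMT1, which moves iron from the endosome into the cytosol (chr15:100387898-100425072, minus strand). It was at 8.199, 9.90 and 9.37 FPKM with RANKL alone and 8.88, 8.68 and 8.44 with etelcalcetide. The etelcalcetide libraries lay inside the RANKL range. The log2 fold change was -0.15 (95% interval -0.34 to 0.04; limma, Benjamini-Hochberg adjusted p = 0.152), and without RANKL replicate 1, the low library, it was -0.23 (limma, Benjamini-Hochberg adjusted p = 0.0272). These are values per gene, so transcripts with and without the element were not separated, and 6.33% of the exon length is shared with Gm5475 on the opposite strand.

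Ftl1 encodes the ferritin light chain, which helps the iron core form (chr7:45457944-45459884, minus strand, 1340 exonic bases). It was at 628, 601 and 780 FPKM with RANKL alone and 931, 1076 and 983 with etelcalcetide. No RANKL library reached the lowest etelcalcetide library. Ftl1 rose from 670 ± 96.6 to 997 ± 73.5 FPKM (SD, n = 3 each). Its log2 fold change was 0.50 (SE 0.102, 95% interval 0.27 to 0.73), 1.42-fold higher (limma, Benjamini-Hochberg adjusted p = 0.0032).

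Fth1 encodes the ferritin heavy chain, whose ferroxidase activity oxidises iron for storage (chr19:9980598-9985098, plus strand, 3469 exonic bases). It was at 440, 465 and 475 FPKM with RANKL alone and 450, 434 and 438 with etelcalcetide. The groups overlapped in deposited FPKM and separated only after scaling between libraries. From 460 ± 18.2 to 441 ± 8.08 FPKM (SD, n = 3 each), its log2 fold change was -0.14 (95% interval -0.26 to -0.02; limma, Benjamini-Hochberg adjusted p = 0.0499). With the replicate block it was not called (limma, Benjamini-Hochberg adjusted p = 0.101). The call sat at the threshold and was lost in 9 of 16 alternative settings, among them scaling by library totals (log2 fold change -0.06; limma, Benjamini-Hochberg adjusted p = 0.374) and leaving out RANKL replicate 2 or 3 or any etelcalcetide library (limma, Benjamini-Hochberg adjusted p up to 0.14).

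Together the heavy and light chain genes took 0.237% to 0.269% of all reads with RANKL alone and 0.281% to 0.295% with etelcalcetide, with Fth1 between 0.151% and 0.165% in all 6 libraries. These are shares of library totals, before scaling between libraries, and the gap between the groups depends on that. Ferritin genes have processed copies whose reads can be misplaced, and the treatment of multi-mapped reads is not stated by the labels or the processing notes. Gm6977, the near-identical copy of Fth1 (at least 90% identity over at least 200 bases), held 36 reads over the 6 libraries. The 10 near-identical genes of Ftl1 were Ftl1-ps1 (325 reads), Gm15590 (81), Gm10252 (68), Ftl2-ps (38), Gm12164 (2), Gm7541 (1), Gm5213 (1) and, with 0 reads, Ftl1-ps2, Gm5278 and Gm47428. Together they held 0.424% to 0.548% as many reads as Ftl1. In addition, 34.6% of Ftl1's exon length overlaps Gm10252 on the opposite strand and Gm22133 on its own. Adding the copies' reads left both fold changes as given, but the ferritin values remain uncertain to the extent that the counting split them.

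Ncoa4 encodes the cargo receptor that carries ferritin to the lysosome, where its iron is released (chr14:32159865-32179855, plus strand, 9365 exonic bases). It was at 9.48, 9.33 and 8.86 FPKM with RANKL alone and 7.01, 6.36 and 6.95 with etelcalcetide. All 3 etelcalcetide libraries were below all 3 RANKL libraries. Ncoa4 fell from 9.23 ± 0.323 to 6.77 ± 0.361 FPKM (SD, n = 3 each), a log2 fold change of -0.52 (SE 0.0702, 95% interval -0.68 to -0.36; limma, Benjamini-Hochberg adjusted p = 0.000341). Its near-identical copy Gm6768 held 6 reads in all.

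Slc40a1 encodes ferroportin, the known iron exporter of mammalian cells (chr1:45908068-45926523, minus strand, 9000 exonic bases). It was the least abundant of the 9, at 0.633, 0.504 and 0.581 FPKM with RANKL alone (87, 72 and 76 reads) and 0.800, 1.08 and 0.909 with etelcalcetide (111, 133 and 133 reads). The groups did not overlap, though the counts were low. The means were 0.573 ± 0.0652 and 0.928 ± 0.139 FPKM (SD, n = 3 each), and the log2 fold change was 0.54 (SE 0.182, 95% interval 0.12 to 0.95; limma, Benjamini-Hochberg adjusted p = 0.0335). With the replicate block it was not called (limma, Benjamini-Hochberg adjusted p = 0.0665). Leaving out RANKL replicate 2 or 3 or etelcalcetide replicate 2 or 3 also ended the call, with adjusted p from 0.0584 to 0.15 (limma, Benjamini-Hochberg). A pseudocount of 1 FPKM gave a log2 fold change of 0.26.

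Aco1 encodes iron regulatory protein 1, which is a cytosolic aconitase when it holds an iron-sulfur cluster (chr4:40143081-40198338, plus strand). It was at 15.3, 15.6 and 16.8 FPKM with RANKL alone and 17.3, 18.8 and 18.4 with etelcalcetide. The deposited values did not overlap, and after scaling between libraries they did. The log2 fold change was 0.11 (95% interval -0.03 to 0.25; limma, Benjamini-Hochberg adjusted p = 0.169), and with library totals alone it was 0.19 (limma, Benjamini-Hochberg adjusted p = 0.0316). Ireb2 encodes iron regulatory protein 2, which is degraded when iron is plentiful (chr9:54863789-54912530, plus strand). It was at 14.4, 11.2 and 11.3 FPKM with RANKL alone and 11.1, 11.8 and 11.3 with etelcalcetide. Apart from the higher RANKL replicate 1, the libraries lay within a narrow range. The log2 fold change was -0.18 (95% interval -0.41 to 0.05; limma, Benjamini-Hochberg adjusted p = 0.166).

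**Figure D2:**
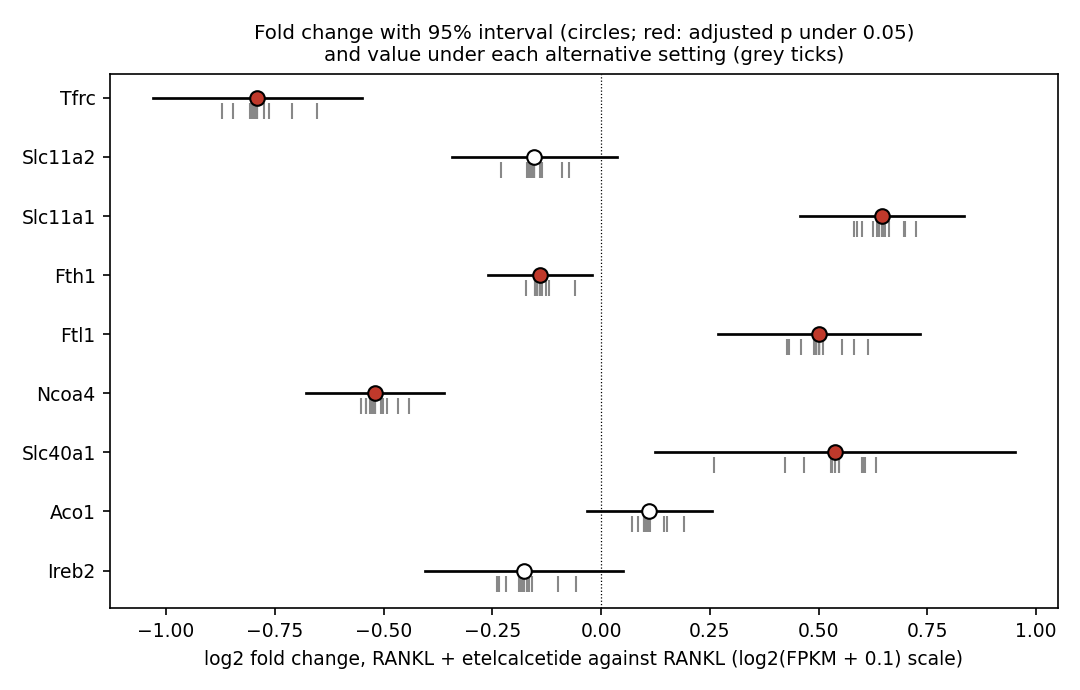
Log2 fold change of the 9 iron genes, etelcalcetide over RANKL alone, with 95% intervals from limma and grey ticks for the alternative settings. Tfrc (-0.79) and Ncoa4 (-0.52) lie to the left and Slc11a1 (0.65), Slc40a1 (0.54) and Ftl1 (0.50) to the right of 0, while the intervals of Slc11a2, Aco1 and Ireb2 cross it.

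Levels per length can be ordered within a group. With RANKL alone the mean FPKM ran from Ftl1 (670) and Fth1 (460) through Tfrc (34.2), Aco1 (15.9), Ireb2 (12.3), Ncoa4 (9.23), Slc11a2 (9.16) and Slc11a1 (7.14) to Slc40a1 (0.573), and Ncoa4 and Slc11a2 did not differ beyond their spread. With etelcalcetide Slc11a1 (11.9) stood beside Ireb2 (11.4), within their spread. FPKM divides by the merged length of all annotated exons. With the length of one annotated messenger of each gene instead (929 bases for Fth1 and 968 for Ftl1), the mean log2 ratio of Fth1 to Ftl1 turned from -0.53 to 0.90 with RANKL alone and from -1.17 to 0.26 with etelcalcetide, so the order of the ferritin chains depends on the length used. The same holds for the middle of the order. With RANKL alone the mean log2 ratio of Aco1 to Ireb2 turned from 0.38 to -0.11, and on messenger length Ncoa4 (25.8) stood above Ireb2 (20.2), Slc11a2 (19.2) and Aco1 (18.7). With either length and in both groups, the ferritin genes were highest, Tfrc next and Slc40a1 lowest.

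Ratios between genes in the same library do not depend on the scaling between libraries. The log2 ratio of Tfrc to Fth1 was -3.42, -3.96 and -3.92 with RANKL alone and -4.40, -4.46 and -4.39 with etelcalcetide. Receptor relative to heavy chain was thus lower in every etelcalcetide library, by 0.65 in the mean log2 ratio, from -3.77 to -4.42 (exact two-sided permutation test, p = 0.1). The log2 ratio of Fth1 to Ftl1 was -0.51, -0.37 and -0.72 with RANKL alone and -1.05, -1.31 and -1.16 with etelcalcetide. Heavy relative to light chain was lower in every etelcalcetide library, with a mean difference of -0.64 (exact two-sided permutation test, p = 0.1). The log2 ratio of Aco1 to Ireb2 was 0.09, 0.48 and 0.57 with RANKL alone and 0.63, 0.67 and 0.71 with etelcalcetide. Here too the groups did not overlap, and the mean difference was 0.29 (exact two-sided permutation test, p = 0.1) but 0.14 without RANKL replicate 1. For 3 libraries against 3, 0.1 is the smallest p this test can give, so none of the 3 ratios could pass 0.05.

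**Figure D3:**
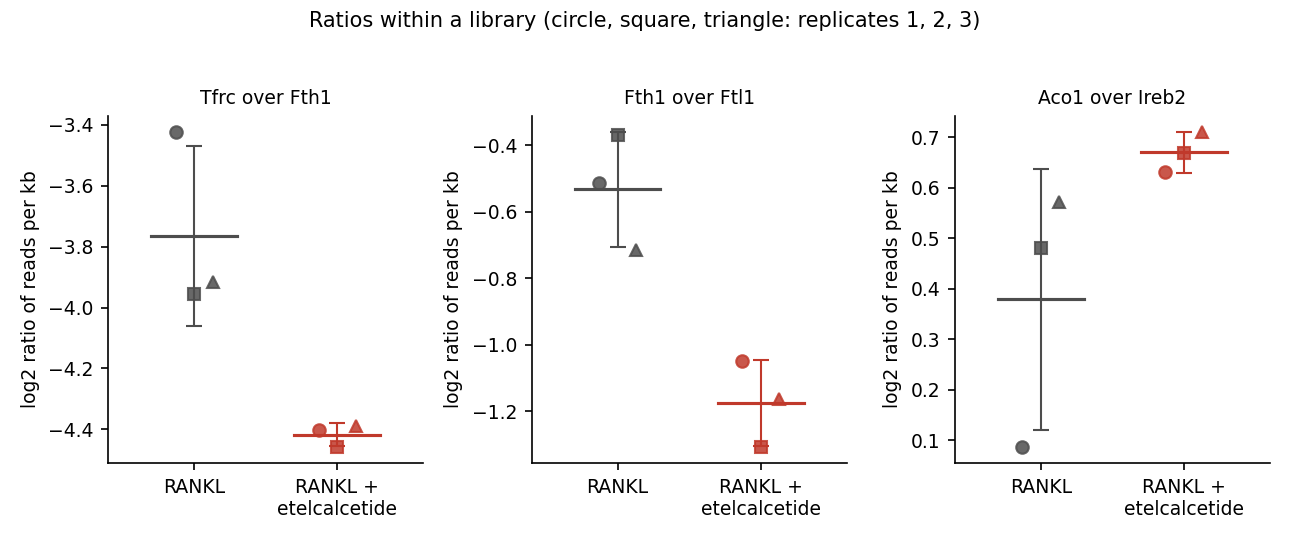
Log2 ratios of Tfrc to Fth1, Fth1 to Ftl1 and Aco1 to Ireb2 in each library, from reads per kilobase of exon, with group means and SD (n = 3). In all 3 panels the groups do not overlap, and RANKL replicate 1 lies farthest from the etelcalcetide libraries for Tfrc to Fth1 and Aco1 to Ireb2.

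Other genes of iron and haem metabolism came from lists of 99 symbols, of which 98 matched a gene and 67 could be tested. Of these, 15 were higher, 17 lower and 35 not called, 47.8% against the 53.0% over all genes, with a median log2 fold change of 0.03. With library totals alone the split was 22 higher and 13 lower, a turn of the balance that the whole table also showed. Leaving out Cp and Epas1, each of which passed the filter only through the group where it is high (RANKL alone for Cp, etelcalcetide for Epas1), 14 of 65 were higher and 16 lower. In uptake and reduction, 5 of 15 were tested. Steap3, the endosomal reductase that readies iron for DMT1, fell from 4.48 ± 0.820 to 2.51 ± 0.177 FPKM (SD, n = 3 each; log2 fold change -0.87; limma, Benjamini-Hochberg adjusted p = 0.000857). Slc48a1, which moves haem out of the lysosome, rose from 9.06 ± 0.833 to 15.9 ± 0.727 FPKM (log2 fold change 0.72; limma, Benjamini-Hochberg adjusted p = 0.000134). Mcoln1, a lysosomal cation channel, also rose (0.46) and Lrp1, a scavenger receptor for haem-hemopexin, fell (-0.39), both on the log2 scale. Transferrin itself, Trf, had at most 8 reads in a library.

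In export and its control, 3 of 12 genes were tested, Cp, Hfe and Flvcr1, and Hfe and Flvcr1 passed the filter in both groups. Cp passed it only through the RANKL group, so the filter favoured a fall of Cp, and its p-value is no independent support for one. Cp, the ferroxidase that works beside ferroportin, fell from 2.05 ± 0.542 to 0.387 ± 0.0597 FPKM (log2 fold change -2.19; limma, Benjamini-Hochberg adjusted p = 4.44e-05), and with a pseudocount of 1 FPKM the log2 fold change was -1.16. Hfe rose by 0.35 and Flvcr1, a haem exporter, had a log2 fold change of -0.22, a call lost in 7 of 15 alternative settings, the replicate block among them (limma, Benjamini-Hochberg adjusted p = 0.0836). Hamp, which encodes the hormone hepcidin that removes ferroportin from the membrane, had 0 reads in every library, which allows up to 0.532 FPKM.

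Among genes that act on the iron regulatory proteins or on oxygen sensing, listed together with Bach1, 6 passed the filter in both groups. Of these, 4 were lower (Skp1a, Cul1, Hif1a and Bach1), against 27.0% of all genes. Bach1 sat near the threshold (log2 fold change -0.18; limma, Benjamini-Hochberg adjusted p = 0.0443). Fbxl5, the iron-sensing adaptor for destruction of iron regulatory protein 2, was at 5.77 and 7.04 FPKM in the means (log2 fold change 0.20; limma, Benjamini-Hochberg adjusted p = 0.0614), and with library totals its log2 fold change was 0.28 (limma, Benjamini-Hochberg adjusted p = 0.0178). Skp1a and Cul1, partners of Fbxl5 in its ubiquitin ligase, fell by 0.35 and 0.44. Epas1, a hypoxia factor listed for an iron-responsive element, had no match in the sequence search above. Epas1 passed the filter only through the etelcalcetide group and rose from 0.223 to 0.784 FPKM (log2 fold change 1.40, or 0.52 with a pseudocount of 1 FPKM), and Hif1a fell by 0.54. In the list of messengers named for an iron-responsive element, drawn up by name and not from that search, Ftl1, Slc40a1, Epas1 and Cdc14a were higher, Tfrc and Fth1 were lower, and Slc11a2 was not called.

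In haem breakdown, Hmox1, which releases iron from haem, was at 29.7 ± 3.38 and 33.5 ± 3.72 FPKM (log2 fold change 0.10; limma, Benjamini-Hochberg adjusted p = 0.463). The biliverdin reductases moved in opposite directions. Blvrb rose from 9.36 ± 0.157 to 17.2 ± 1.31 FPKM (log2 fold change 0.79; limma, Benjamini-Hochberg adjusted p = 3.93e-05), and Blvra fell from 28.7 to 19.4 FPKM (-0.65; limma, Benjamini-Hochberg adjusted p = 0.000104). In haem synthesis 3 of 8 were called (37.5%, against 53.0% of all genes), all higher: Alas1, which catalyses its first step (log2 fold change 0.57), Urod (0.30) and Ppox (0.34, a call lost in 6 of 15 alternative settings). In mitochondrial iron and iron-sulfur assembly 4 of 20 rose and 6 fell (50.0% called, against 53.0% of all genes), near the share of the whole table. Hspa9, a chaperone for cluster transfer, fell from 213 to 127 FPKM (log2 fold change -0.83; limma, Benjamini-Hochberg adjusted p = 1.86e-05), and Slc25a28, a mitochondrial iron importer, rose from 7.23 to 11.1 FPKM. Its homologue Slc25a37 was at 8.74 and 9.70 FPKM and was not called (log2 fold change 0.07; limma, Benjamini-Hochberg adjusted p = 0.472). Fdxr, which passes electrons to cluster assembly, and Iscu, the assembly scaffold, fell by 0.54 and 0.28 on the log2 scale. In the cytosolic iron-sulfur pathway 1 of 14 rose, Ciao2b (0.40), and 2 fell, Glrx3 (-0.47) and Ciao2a (-0.22). That is 21.4% called, below the 53.0% of all genes. Of the 3 tested genes for storage and chaperones, Pcbp4 rose (log2 fold change 0.96). Pcbp1, which delivers iron to ferritin, was at 280 and 306 FPKM and was not called (log2 fold change 0.05; limma, Benjamini-Hochberg adjusted p = 0.452).

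**Figure D4:**
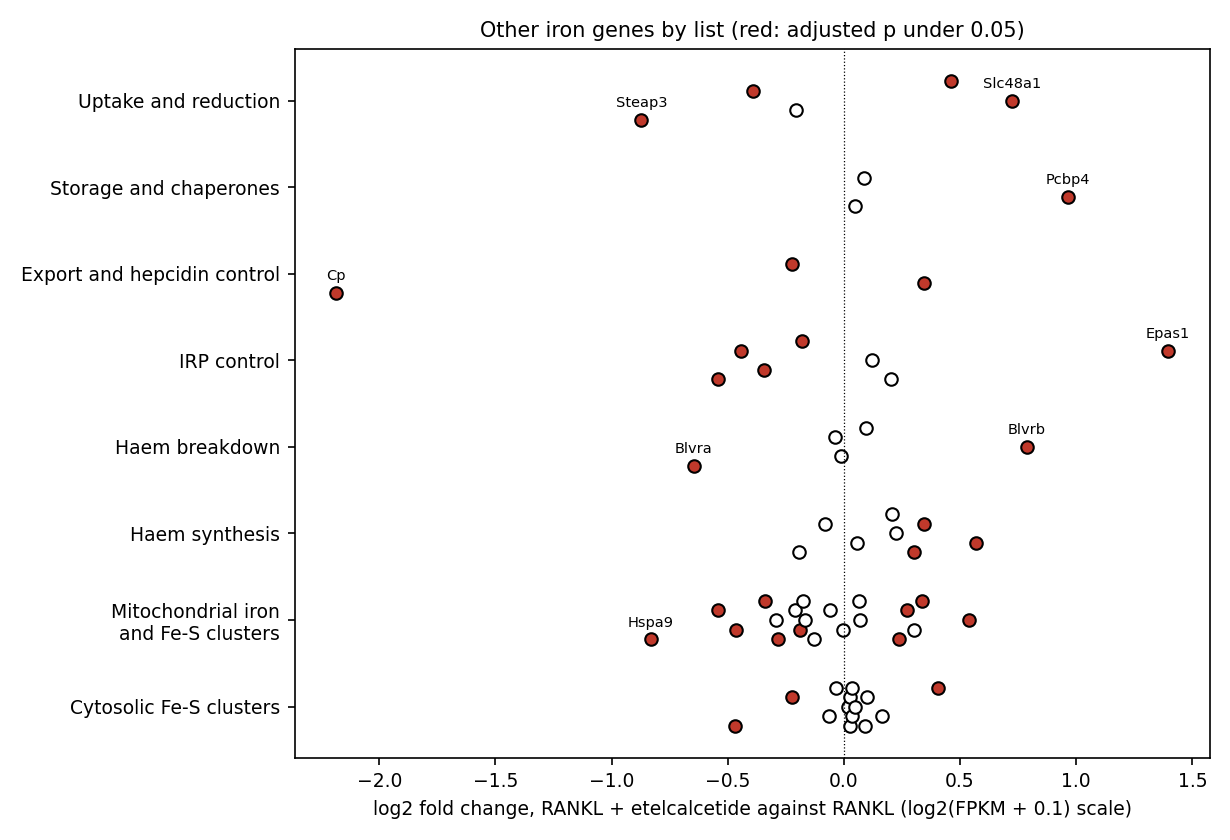
Log2 fold change, etelcalcetide over RANKL alone, of the 67 tested iron and haem genes by list, with red for an adjusted p under 0.05. Points lie on both sides of 0 in most lists, and Cp (-2.19) and Epas1 (1.40) lie farthest out at the pseudocount of 0.1 FPKM used here. Both passed the filter only through the group where they are high.

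Genes whose scaled log2 profile over the 6 libraries lay closest to a called member were found by the root mean square difference after centring each gene. For Tfrc they were Wwp1 (0.0548), Kpna4 (0.0584) and Fnip1 (0.0585). For Slc11a1 they were Cln6 (0.0314), Capn1 (0.0407) and S100a11 (0.0410), and for Ncoa4, Tbl1x (0.0129), Nsun2 (0.0150) and Dnajc7 (0.0191). These are likenesses over 6 libraries only.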

How the data were processed

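RNA of 6 RAW264.7 libraries was sequenced, 3 with RANKL and 3 with RANKL and etelcalcetide. The authors deposited FPKM per gene for GENCODE M21 identifiers. The submitters' processing notes name, without roles, HISAT2 2.1.0 and featureCounts 1.6.0, besides DESeq2 1.22.1, Trimmomatic 0.38, MultiQC, FastQC and CASAVA, and the human build GRCh38, although all 55536 identifiers are mouse. Strandedness and the RNA selection are not given in the sources used here. FPKM times merged exon length gave whole reads for 100% of values (tolerance 0.01). FPKM was divided by trimmed-mean (TMM) factors and tested as log2(FPKM + 0.1) with limma 3.58.1 (R 4.3.3, mean-variance trend), so fold changes of low genes are understated. Genes needed 0.5 FPKM and 10 reads in at least 3 libraries. P-values were adjusted by Benjamini-Hochberg over 11120 genes, and calls used 0.05. The test was checked on simulated data in which far fewer genes changed than were called here. That check therefore does not cover a change this broad. Near-identical genes were found with BLAST 2.17.0. The 9 genes, the marker and pathway lists and their named members were chosen with earlier results of these data known. The text names all 9 genes, their near-identical genes (at least 90% identity over 200 bases), from each other list up to 4 called genes with the smallest adjusted p plus Hmox1, Fbxl5, Steap3, Slc25a37, Trf, Hamp and Cp, and the 3 nearest profiles of the 3 called members with the smallest adjusted p. Other genes named were chosen after their values were seen. One symbol, Ndor1, had 2 identifiers and was left out. Alternatives covered scaling, pseudocount, filter, limma voom on recovered reads, a replicate block, near-identical genes and leaving out each library. The result for a further gene of the iron-responsive element list is not reported here. The labels give replicates of the same number in both groups the same treatment day, so the number was also fitted as a block; deviations of same-numbered libraries from their group means correlated at 0.0744, -0.0188 and -0.0299 over 11120 genes.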

Additional observations from a re-analysis of the deposited data

How the results depend on the processing

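Over all alternatives no direction reversed, and Tfrc (log2 fold change -0.87 to -0.65), Slc11a1 (0.58 to 0.72), Ftl1 (0.43 to 0.61) and Ncoa4 (-0.55 to -0.44) kept their calls. Fth1 lost its call in 9 of 16 settings and Slc40a1 in 6 of 14, while Slc11a2 gained one without RANKL replicate 1 and Aco1 with library totals. Ireb2 was not called in any of 15. Leaving out each library gave 4 to 7 called of the 9 genes, 25 to 34 of the other iron genes and 4689 to 6064 of all genes, with the ratio differences between -0.75 and -0.48 for Tfrc to Fth1, -0.73 and -0.56 for Fth1 to Ftl1, and 0.14 and 0.39 for Aco1 to Ireb2. With the replicate number as a block, 4 of the 9 genes, 31 of the other iron genes and 5709 of all genes were called (Fth1 adjusted p = 0.101 and Slc40a1 0.0665 by limma). The mean ratio differences of -0.65, -0.64 and 0.29 cannot change with this block, because each replicate number has a library in each group. They are therefore no check on it. Besides Fth1, Slc40a1 and Flvcr1, no named iron gene that was called lost its call with the block, with Bach1 not examined. The messenger lengths used for the ferritin ratio were chosen after seeing the data. Depth limits Slc40a1 most, with at most 133 reads in a library.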
